A study of Mus musculus with 3 samples.

Results

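This account concerns the cell barcodes whose RNA was spread over all 3 sequencing libraries of a mouse pancreatic tumour study. A barcode is the short DNA tag that marks all RNA captured in 1 droplet, and a UMI is a tag that marks 1 captured RNA molecule. Members were selected on measured values, the UMI counts of each barcode summed over the 3 libraries and the share of each library in them. A barcode was a member if it had 1000 or more UMIs and no library held 60% or more of them. By this rule 739 of 7591 barcodes with 1000 or more UMIs (9.74%) were members, here called spread barcodes. The other 6852, with 60% or more of their UMIs in 1 library, are called home barcodes and are the set against which the members were read. The members are described by the label as erythroid, endothelial and Ttr-positive.

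The study transplanted tdTomato-positive precancerous epithelial cells of Msi2-Myc; R26-LSL-tdTomato mice, taken at 5 weeks after tamoxifen, into the pancreas of NSG mice, which lack lymphocytes and NK cells. It asked whether transcriptionally uncommitted cells can give rise to several pancreatic cancer subtypes. The 3 tumours, 1 library each, share genotype, tamoxifen treatment and host, and EpCAM-positive cells were sorted from each at end stage. There was no untreated or other control group. The labels take tdTomato as the mark of MYC expression and do not name the promoter behind Cre. The protocol in the labels includes a lysis step for red blood cells. Total counts were 11502184, 9737397 and 16521484 UMIs in libraries 1, 2 and 3, over unfiltered barcodes.

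Red cells carry oxygen on haemoglobin, which is built from alpha-globin and beta-globin chains around heme, and young red cells keep globin mRNA after they have lost the nucleus. Endothelial cells line blood vessels, and those of the brain form the blood-brain barrier through tight junctions, efflux pumps and selective transporters. Transthyretin, the product of Ttr, carries thyroid hormone and retinol-binding protein and is made mainly by liver and by the choroid plexus epithelium of the brain.

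The tag itself is shown for the member with the most UMIs in each of the 6 clusters described further on, since 1 tag read in 3 libraries is what makes a member. Capitals mark the bases that differ from the nearest other barcode with 1000 or more UMIs.
Cluster 1: TCcAtcggtacgactt
Cluster 2: agTactGtcgAgAgac
Cluster 3: agCGccaagGtCcctg
Cluster 4: tctcacggtCAtccgG
Cluster 5: gGGacTccacacgtgc
Cluster 6: cGCcattgtatccTCC
The cluster 1 tag had 3290, 4714 and 1853 UMIs in libraries 1, 2 and 3. The cluster 2 tag had 1784, 2633 and 971 UMIs in them. The cluster 3 tag had 761, 1184 and 453. In each of these 3, as in the cluster 4 (912, 1287 and 531 UMIs), cluster 5 (850, 1326 and 550) and cluster 6 (1130, 1959 and 815) tags, library 2 held the most and library 3 the fewest. No member lay within 1 base of another barcode of this depth, 43 lay at 2 bases, 130 at 3, 420 at 4 and 146 at 5. Home barcodes had 0 neighbours at 1 base, 474 at 2, 1206 at 3, 3803 at 4, 1359 at 5 and 10 at 6.

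The split of a member's UMIs over the libraries was narrow. The median spread barcode had 32.2% of its UMIs in library 1, 49.1% in library 2 and 19.0% in library 3. From the 5th to the 95th percentile these shares ran from 27.6% to 35.1%, from 46.3% to 51.9% and from 16.7% to 22.2%. Library 2 held the most UMIs in 731 members, library 1 in 4 and library 3 in 4. The same tags were therefore present in all libraries, and every member had at least 160 UMIs in each. Home barcodes were not confined to 1 library either. The median home barcode of library 1 had 75.3%, 17.0% and 7.77% of its UMIs in libraries 1, 2 and 3. That of library 2 had 13.2%, 77.7% and 9.09%, and that of library 3 had 7.83%, 12.1% and 80.1%. All home barcodes had at least 18 UMIs in each library. There were 2222, 432 and 4198 home barcodes of libraries 1, 2 and 3. Because the same barcodes supply the UMIs of all 3 libraries, the libraries are not separate samples of these barcodes. No test was made, and values by library show only how alike 3 readings of the same tags are.

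**Figure D1:**
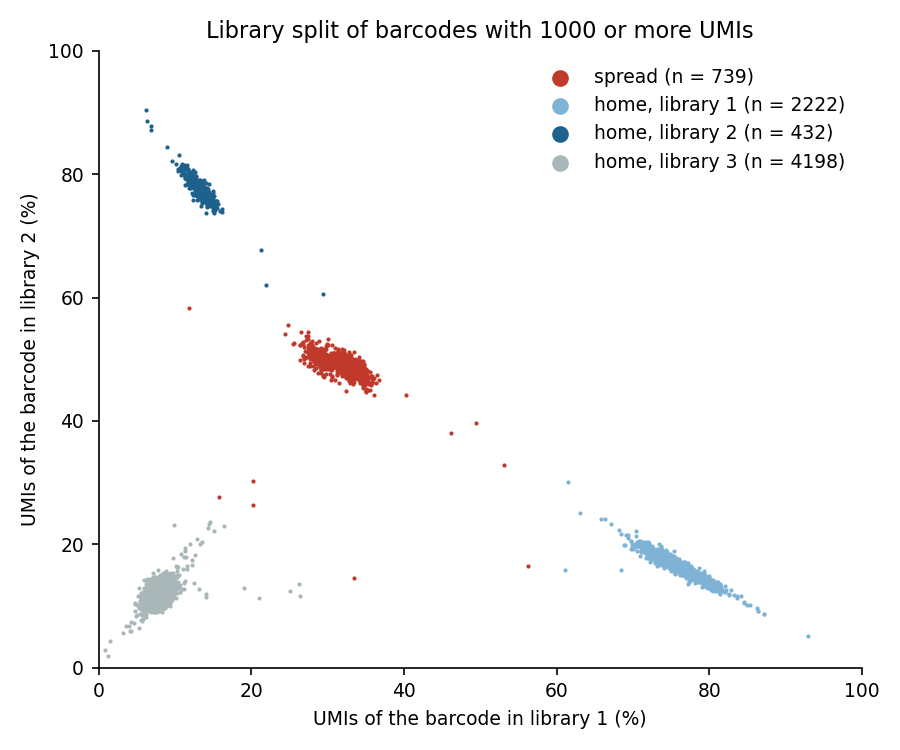
Percent of a barcode's summed UMIs in library 1 (x axis) and in library 2 (y axis), 1 point per barcode with 1000 or more UMIs, for 739 spread barcodes (red) and the home barcodes of libraries 1, 2 and 3 (blue and grey). Nearly all spread barcodes form 1 compact cloud around 32.2% and 49.1%, apart from the 3 home clouds.

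Few barcodes lay near the 60% limit. The members closest to it had 58.2%, 56.5% and 56.3% of their UMIs in the library that held most, and the nearest barcodes outside had 60.1%, 60.6% and 60.6%. Only 4 barcodes had a largest share from 55% to 60%, and 13 from 60% to 65%, against 500 from 45% to 50% and 3493 from 75% to 80%. On the other limit, members began at 1000 UMIs and the nearest barcodes outside had 999. Members were shallow, with a median of 1212 UMIs against 1752.5 in home barcodes, and a median of 722 genes against 612. Their share among barcodes was lower at greater depth. They were 595 of 3053 barcodes with at least 1000 and under 1500 UMIs (19.5%), 46 of 2115 with at least 2000 and under 5000 (2.17%) and 2 of 545 with 5000 or more (0.367%).

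The labelled cell type, EpCAM-positive epithelial, did not match the RNA of the spread barcodes. Epcam, the surface protein used for the sort, had 6 UMIs in the 739 spread barcodes, against 10876 in the 6852 home barcodes. In CPM (UMIs scaled to a total of 1000000, the level used throughout) this was 6.01 (exact Poisson 95% interval 2.20 to 13.1) against 563.9 (553.4 to 574.6). Myc, the oncogene named in the genotype, had 4 UMIs in spread barcodes and 1170 UMIs in home barcodes. Msi2, an RNA-binding protein and the other gene of the genotype name, went the other way, with 150.2 CPM in spread barcodes and 69.6 CPM in home barcodes, a 2.16-fold difference (1.81 to 2.56). All intervals cover counting error only.

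Spread barcodes held 998768 UMIs in all and home barcodes 19285692. The genes counted were the 11054 with 50 or more UMIs over both sets. Of these, 2885 (26.1%) were 2-fold or more higher in spread barcodes and 2293 (20.7%) were 2-fold or more lower. In all 3 libraries taken singly, 2200 of the 2885 and 840 of the 2293 passed the same limit. Genes with few home UMIs could not be called lower, since 3 UMIs were the floor for the much smaller spread set. With no minimum of UMIs, 10459 genes were higher and the lower count stayed at 2293. The lower counts, above all those by library, are thus held down by the floor. The median log2 ratio over all 11054 genes was 0.10. With mitochondrial and ribosomal RNA locus genes left out of the totals, 2299 were higher and 2927 lower. Each list below is set beside these shares as a description. Genes with under 50 home UMIs were counted only because of their spread UMIs, so nearly all of them had to come out higher. For such genes, a tally of counted genes that were higher is no support. Free RNA, taken as the 136964 barcodes with 10 to 100 summed UMIs, is given beside the lists that lead.

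Of the cell type lists, the erythroid list had the highest ratio of spread over home level. Its 14 measured genes summed to 89896 CPM in spread barcodes, against 61.2 CPM in home barcodes, a 1469-fold difference (1387 to 1557), and to 1113 CPM in free RNA. The level was alike in each library, at 87202, 90767 and 92122 CPM in spread barcodes and 60.2, 67.8 and 59.6 CPM in home barcodes. All 8 of its genes with enough UMIs were 2-fold or more higher, with a median log2 ratio of 12.44. The adult globin genes and Alas2 among them had enough UMIs only through the spread barcodes, so for them this tally followed from the limit. Of the other 6, 3 had no UMI in spread barcodes: Klf1, the transcription factor of red cell precursors, Rhag of the Rh complex, and Hemgn.

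The adult globin genes were the 4 genes with the highest ratios of all. Hbb-bs (chr7:103826534-103828096 of GRCm38/mm10, as all positions here), a beta-globin gene, had 45788, 47892 and 48642 CPM in libraries 1, 2 and 3 of the spread barcodes, against 1.82, 3.93 and 1.71 CPM in the home barcodes. Spread and home values did not overlap in any library, and the summed counts were 47310 UMIs in spread barcodes and 41 in home barcodes. Hba-a1 (chr11:32283511-32284465), an alpha-globin gene, had 17150, 17867 and 18023 CPM in spread barcodes, against 0.36, 0.91 and 0.76 CPM in home barcodes. Hba-a2 had 13664 UMIs in spread barcodes and 8 in home barcodes, and Hbb-bt had 10591 in spread and 4 in home barcodes. Hba-a1 and Hba-a2, like Hbb-bs and Hbb-bt, are near-identical copies, so how reads divide within each pair is uncertain. The embryonic globin genes Hbb-y, Hbb-bh1 and Hba-x had no UMI in either set.

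Alas2 (chrX:150547375-150570638), the red-cell enzyme that starts heme synthesis, had 215 UMIs in spread barcodes and 0 in home barcodes, at least 1384-fold higher when 3 UMIs are set as the home count. Over the 9 heme synthesis genes 3 were higher (Alas2, Alas1 and Fech), 2 lower (among them Cpox) and 4 neither, close to the 26.1% higher and 20.7% lower over all genes. Alas1, the enzyme of the same step in other tissues, had 165.2 CPM in spread barcodes and 38.3 CPM in home barcodes. Of 12 late erythroid genes 6 were higher, 1 lower and 5 neither, against the same 26.1% and 20.7% over all genes. The list summed to 1541 CPM in spread and 1127 CPM in home barcodes, 1.37-fold higher. The 6 include Bnip3l, which clears mitochondria from maturing red cells (296.4 CPM in spread and 70.8 CPM in home barcodes), and Mkrn1, a ubiquitin ligase (163.2 CPM in spread and 52.0 CPM in home barcodes). Bnip3l was not confined to globin-rich barcodes. In the clusters described further on it had 90 UMIs in erythroid-like cluster 3, and 104 and 60 in endothelial-like clusters 1 and 2. Mkrn1 had 117 UMIs in cluster 3, and 22 and 12 in clusters 1 and 2. Tfrc, the transferrin receptor that brings in iron, had 237.3 CPM in spread barcodes and 292.6 CPM in home barcodes. The red cell membrane skeleton genes were too sparse to read: 1 of 10 had enough UMIs (Epb41, 68.1 CPM in spread and 47.6 CPM in home barcodes).

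Globin RNA was concentrated in a minority of members. After each barcode was thinned to 1000 UMIs, 133 of 739 spread barcodes (18.0%, exact binomial 95% interval 15.3% to 21.0%) held 10 or more erythroid UMIs, against 0 of 6852 home barcodes, which allows a share of up to 0.0438% by the limit of 3 counts (0.0538% by the exact binomial interval). Without thinning, 133 spread barcodes and 0 home barcodes held 1% or more. No erythroid UMI was drawn in 560 of the 739. The erythroid list made up 25% or more of the UMIs in 117 barcodes, 50% or more in 68 and 75% or more in 12, with a maximum of 98.1%. The count of barcodes with 10 or more depended on the filter: once 500 genes and a mitochondrial share of 20% or less were required, it was 58 in place of 133.

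A barcode rich in globin in 1 library was rich in the others. Across the 739 spread barcodes the erythroid share in library 1 and in library 2 had a Spearman rho of 0.90, libraries 1 and 3 gave 0.92 and libraries 2 and 3 gave 0.90. Over the 133 barcodes with 1% or more, the median difference between libraries was 2.00, 2.50 and 2.28 percentage points for these pairs. The points share their barcodes and, being UMIs of the same tags, are not independent. The endothelial list gave 0.70, 0.63 and 0.63 for the same pairs.

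**Figure D2:**
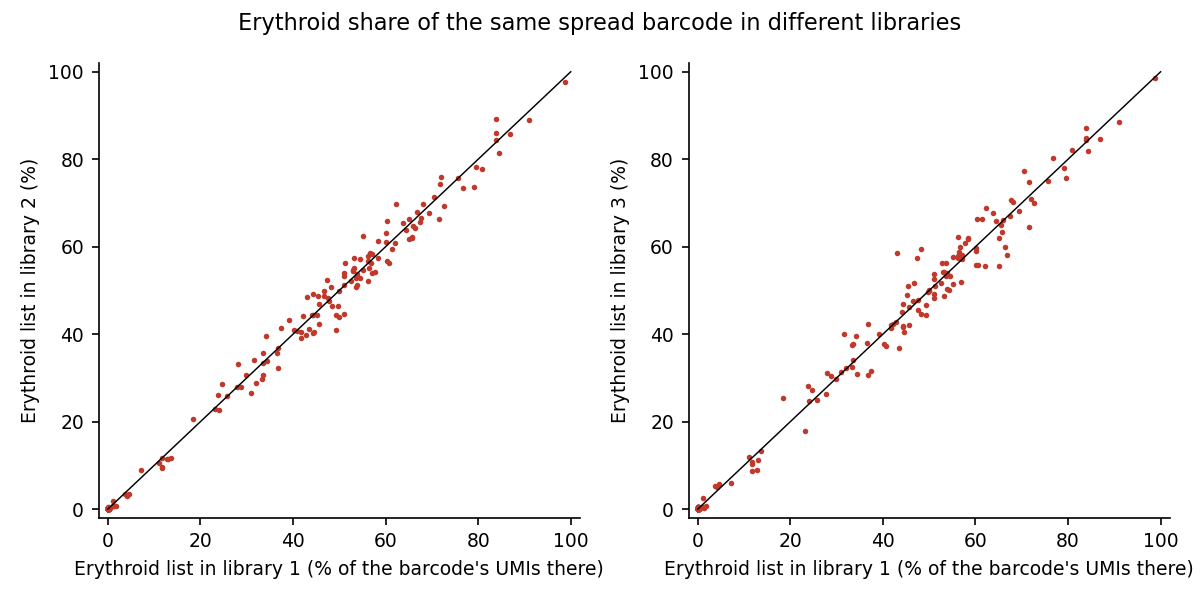
Erythroid list as a percent of a barcode's UMIs in library 1 (x axis) against library 2 (left) and library 3 (right), for 739 spread barcodes, 1 point each; the line marks equal shares. The 133 barcodes with 1% or more lie along the line up to a maximum near 98.1%, with median differences of 2.00 and 2.50 percentage points.

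Endothelial genes were found across most spread barcodes. The 19-gene endothelial list summed to 13857 CPM in spread barcodes, against 42.8 CPM in home barcodes, a 324-fold difference (302 to 348), and to 1626 CPM in free RNA. All 17 genes counted were 2-fold or more higher, but some, such as Tek and Vwf, were counted only because of their spread UMIs. After thinning, 522 of 739 spread barcodes (70.6%, 67.2% to 73.9%) held 10 or more of its UMIs, against 3 of 6852 home barcodes (0.0438%, 0.00903% to 0.128%). Without thinning, 516 spread and 2 home barcodes held 1% or more. At 20 or more UMIs of the thinned 1000 it was 242 spread barcodes and 1 home barcode.

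Cldn5 (chr16:18776847-18778262), the main tight junction claudin of brain endothelium, had 3987, 3971 and 3975 CPM in libraries 1, 2 and 3 of the spread barcodes, against 7.11, 12.1 and 2.38 CPM in the home barcodes. Flt1 (chr5:147561604-147726011), VEGF receptor 1, had 3096, 3238 and 3005 CPM in spread barcodes, against 5.29, 14.2 and 2.48 CPM in home barcodes. Igfbp7 (chr5:77349240-77408041), a secreted protein of vessel walls, had 3984, 3751 and 3521 CPM in spread barcodes, against 7.48, 11.2 and 12.2 CPM in home barcodes. For these 3 genes the sets were far apart in every library, with summed ratios of 737-fold for Cldn5 (607 to 905), 595-fold for Flt1 (489 to 732) and 354-fold for Igfbp7 (308 to 409). Cldn5 was found in 615 of 739 spread barcodes, Igfbp7 in 619 and Flt1 in 613, and no barcode held over 1.09% of the UMIs of any of them. In free RNA they stood at 513.0 CPM (Cldn5), 247.2 CPM (Igfbp7) and 345.1 CPM (Flt1), lower than in spread barcodes and higher than in home barcodes.

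Other endothelial genes among the 20 highest ratios were Cd93, a C-type lectin receptor (482 UMIs in spread barcodes and 7 in home barcodes), Tek, the angiopoietin receptor (162 in spread and 3 in home barcodes), Vwf, the clotting protein stored in endothelial granules (246 in spread and 5 in home barcodes), and Adgrf5, an adhesion receptor (472 in spread and 10 in home barcodes). Pecam1, which joins endothelial cells, had 457.6 CPM in spread barcodes and 3.06 CPM in home barcodes. Cdh5, their cadherin, had 333.4 CPM in spread and 0.47 CPM in home barcodes. Plvap, which forms the diaphragms of leaky capillaries, had 2 UMIs of the 998768 in spread barcodes and 10 of the 19285692 in home barcodes. These were too few to be counted and give no direction.

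Genes of the blood-brain barrier were high as well. All 10 genes of that list were 2-fold or more higher, against 26.1% over all genes. Some, such as Slco1c1 and Abcb1a, were counted only because of their spread UMIs, so for them the tally is no support. The list summed to 17777 CPM in spread barcodes, against 538.6 CPM in home barcodes, a 33.0-fold difference (32.2 to 33.8), and to 2908 CPM in free RNA. After thinning, 505 spread barcodes (68.3%) and 11 home barcodes held 10 or more of its UMIs, and 337 spread barcodes and 1 home barcode held 20 or more. The labels name pancreas only, and whether the RNA of the spread barcodes came from these tumours was not tested. Bsg, the chaperone of monocarboxylate transporters, had the most UMIs of the list, with 7736 CPM in spread barcodes and 436.9 CPM in home barcodes. Slc2a1, the glucose transporter of the barrier, had 1642 CPM in spread and 49.8 CPM in home barcodes. Itm2a, a membrane protein, had 1632 CPM in spread and 2.23 CPM in home barcodes. Transporters of narrower use followed the same direction. Slco1c1, which carries thyroxine, had 654.5, 615.7 and 511.1 CPM in libraries 1, 2 and 3 of the spread barcodes, against 0.55, 1.82 and 0.29 CPM in the home barcodes, so all spread values were higher. Slc22a8, an organic anion transporter, had 154 UMIs in spread and 3 UMIs in home barcodes. Abcb1a, the P-glycoprotein efflux pump, had 552.7 CPM in spread and 0.67 CPM in home barcodes. Mfsd2a, a carrier of omega-3 lipids, had 225.3 CPM in spread and 12.4 CPM in home barcodes.

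Most genes of vessel growth signalling were high too. Of 14 VEGF, angiopoietin and Notch genes counted, 12 were higher and 0 lower, against 26.1% higher and 20.7% lower over all genes. Some, such as Kdr and Tek, were counted only because of their spread UMIs, so for them the tally is no support. The higher ones include Flt1, Kdr, Tek and Tie1, which are also in the endothelial list. Kdr, VEGF receptor 2, had 442.5 CPM in spread barcodes and 0.73 CPM in home barcodes. Nrp1, its co-receptor, had 241.3 CPM in spread and 9.96 CPM in home barcodes. Among ligands, Angpt2 had 103.1 CPM in spread and 1.19 CPM in home barcodes, Dll4, a Notch ligand of sprouting vessels, had 84.1 CPM in spread and 2.39 CPM in home barcodes, and Vegfa had 42.1 CPM in spread and 57.4 CPM in home barcodes. Hes1, a target of Notch, had 439.5 CPM in spread and 151.6 CPM in home barcodes.

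The Ttr level came from 1 barcode. Ttr, on chromosome 18, had 4223, 4016 and 3955 CPM in libraries 1, 2 and 3 of the spread barcodes, against 10.6, 4.24 and 3.72 CPM in the home barcodes. Of its 4065 UMIs in spread barcodes, 4062 (99.9%) had the tag shown above for cluster 1, and 3 other barcodes had 1 each. That barcode had 9857 UMIs, the most of any member, 2231 genes and 0 Epcam UMIs, and Ttr was 41.2% of it, with 1341, 1955 and 766 Ttr UMIs in libraries 1, 2 and 3. It also held 136 of the 170 UMIs of Enpp2, which makes the lipid signal lysophosphatidic acid. All UMIs of several choroid plexus genes lay in it: 38 of 38 for 1500015O10Rik, 21 of 21 for Folr1, the folate receptor, 18 of 18 for Kcnj13, a potassium channel, and 6 of 6 for Otx2, a transcription factor.

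Over the 20-gene choroid plexus epithelial list the summed level was 4441 CPM in spread barcodes and 391.5 CPM in home barcodes, 11.4-fold higher. Without that barcode it was 104.2 CPM in spread barcodes, against the same 391.5 CPM, so the log2 ratio went to -1.91 in place of 3.50. Of the 8 list genes counted, 3 were higher (Ttr, Enpp2 and Igfbp2), 4 lower (Wfdc2, Car12, Calml4 and Clic6) and 1 neither. Ttr itself stood at 3.03 CPM without the barcode and Enpp2 at 34.4 CPM. After thinning, 1 of 739 spread barcodes held 10 or more list UMIs (0.135%, 0.00343% to 0.752%), against 0 of 6852 home barcodes. Ttr thus describes 1 member, not the set. Liver genes were near absent: the 10-gene hepatocyte list had 7.01 CPM in spread barcodes and 4.04 CPM in home barcodes. Alb, albumin, had 0 UMIs in spread barcodes and 26 in the home barcodes, whose total was far larger, too few for a direction.

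Apoe (chr7:19696109-19699188), the lipid carrier made by astrocytes and macrophages, had 3122, 3234 and 3268 CPM in libraries 1, 2 and 3 of the spread barcodes, against 6.75, 16.9 and 14.6 CPM in the home barcodes. It was found in 337 of 739 spread barcodes, and 13.7% of its UMIs lay in 1 of them. Most Apoe UMIs lay in 2 of the clusters described further on. Astrocyte-like cluster 5 (55 barcodes) had 2005 and myeloid-like cluster 6 (12 barcodes) had 532. In CPM this was 25714 and 25142, against 261.8 to 1278 in clusters 1 to 4. Of 11 carrier and lipoprotein genes 7 were higher and 3 lower. The higher ones include Ttr and Enpp2, whose UMIs lay mostly in the 1 barcode described above, and Pltp, also in the barrier list. The list summed to 10197 CPM in spread barcodes, to 5975 CPM without that barcode and to 1463 CPM in home barcodes. Apod, another lipid carrier, had 579 UMIs in spread barcodes and 2 in home barcodes, so it was counted only because of its spread UMIs. Pltp, which transfers phospholipids, had 1458 CPM in spread and 4.10 CPM in home barcodes. Clu, clusterin, had 471.6 CPM in spread and 1087 CPM in home barcodes. Of 6 IGF and IGF-binding genes counted 5 were higher, led by Igfbp7, and Igf1 was lower, with 3.00 CPM in spread barcodes and 54.8 CPM in home barcodes.

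Genes of further non-epithelial cells were high in spread barcodes at lower levels. Tallies of counted genes here and in the next paragraph carry the limit given above for genes sparse in home barcodes. The pericyte and smooth muscle list summed to 2462 CPM in spread barcodes and 15.3 CPM in home barcodes, with 10 of 10 counted genes higher. Rgs5, a regulator of G-protein signals in pericytes, had 935.2 CPM in spread and 1.24 CPM in home barcodes. Myl9, a myosin light chain of contractile cells, had 262 UMIs in spread and 5 UMIs in home barcodes. The astrocyte list summed to 4104 CPM in spread and 68.2 CPM in home barcodes, with 11 of 11 counted genes higher. Slc1a2, the glutamate transporter of astrocytes, had 616.8, 591.0 and 629.8 CPM in libraries 1, 2 and 3 of the spread barcodes, against 0.55, 0 and 0.10 CPM in the home barcodes, so every spread value was far above every home value. Mt3, a brain metallothionein, had 369 UMIs in spread and 8 in home barcodes. Gpr37l1, an astrocyte receptor, had 171 in spread and 3 in home barcodes.

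The fibroblast and myeloid lists were carried by few barcodes: after thinning, 12 and 10 spread barcodes held 10 or more of their UMIs. The fibroblast list summed to 600.7 CPM in spread barcodes and 8.66 CPM in home barcodes (5 of 5 counted genes higher), and the myeloid list to 733.9 CPM in spread and 55.6 CPM in home barcodes (6 of 8 higher, 1 lower). Lyz2, the lysozyme of macrophages, had 249 UMIs in spread barcodes, 59.0% of them in 1 barcode, and 4 in home barcodes. Ptgds, prostaglandin D synthase of the meninges, had 179 UMIs, 64.8% in 1 barcode, and 2 in home barcodes. Of all 2885 higher genes, 15 had 50% or more of their UMIs in 1 spread barcode. Neuronal genes summed to 175.2 CPM in spread and 6.01 CPM in home barcodes and microglial genes to 112.1 CPM in spread and 3.58 CPM in home barcodes. The oligodendrocyte list had 461.6 CPM in spread and 104.9 CPM in home barcodes. Of this Mal, a lipid raft protein, had 416.5 CPM in spread and 55.8 CPM in home barcodes. In the clusters described further on, Mal had 190 and 126 UMIs in endothelial-like clusters 1 and 2 and 61 in erythroid-like cluster 3. No other cluster had more than 23. Mog and Mobp had no UMI in spread barcodes. Pancreatic endocrine genes had 10.0 CPM in spread and 0.88 CPM in home barcodes, and Ins1, Ins2, Gcg and Sst had no UMI in spread barcodes.

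**Figure D3:**
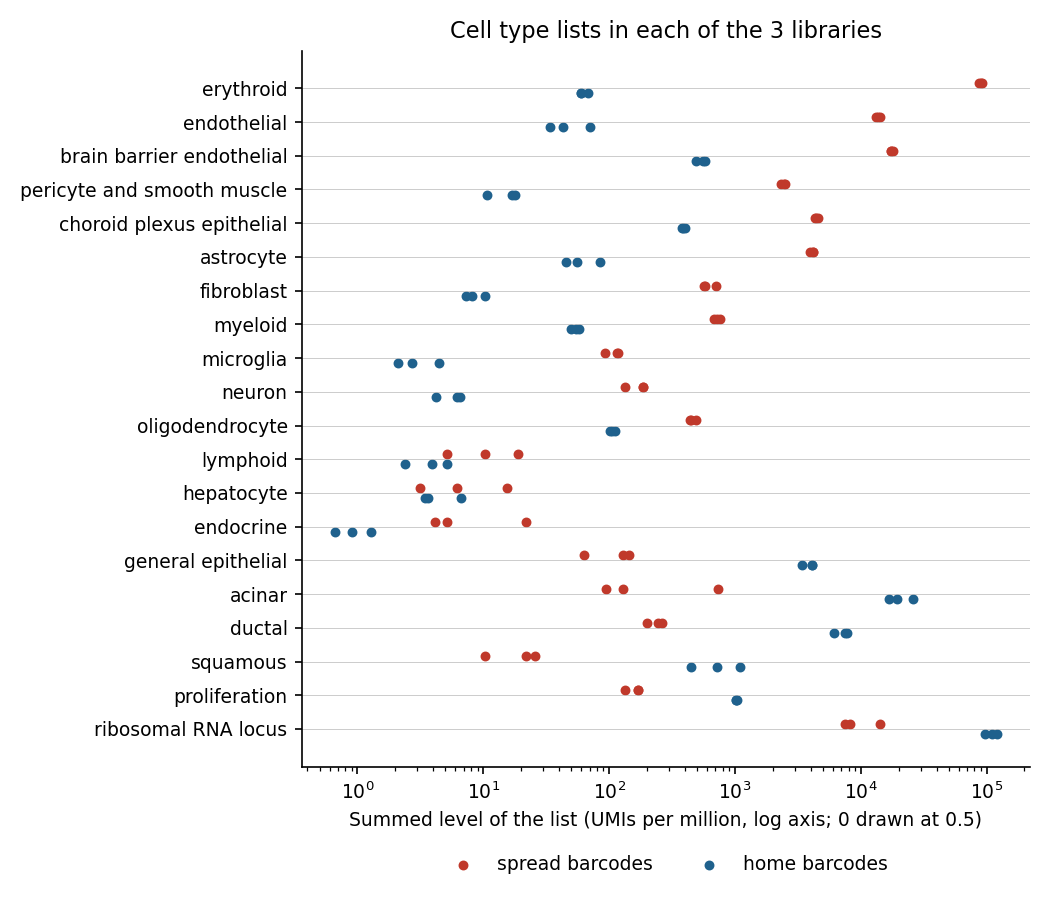
Summed level of each marker list in CPM (log axis, zeros drawn at 0.5) in libraries 1, 2 and 3, 1 point per library, for spread barcodes (red) and home barcodes (blue). Blood, vessel, glial and stromal lists lie to the right in spread barcodes and acinar, ductal, epithelial and ribosomal RNA locus lists to the right in home barcodes; the choroid plexus points rest on 1 barcode.

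Epithelial and digestive genes made up the low end. All 18 acinar genes were 2-fold or more lower, and the list summed to 228.3 CPM in spread barcodes, against 22348 CPM in home barcodes and 15758 CPM in free RNA. By library it was 129.0, 94.4 and 727.9 CPM in spread barcodes and 16676, 19405 and 26237 CPM in home barcodes. Library 3 was thus the highest in both sets. Of 10 ductal genes 9 were lower (228.3 CPM in spread and 6842 CPM in home barcodes), of 11 squamous genes 10 (17.0 CPM in spread and 843.3 CPM in home barcodes), and all 6 general epithelial genes (102.1 CPM in spread and 3722 CPM in home barcodes). The 8 members with the most UMIs outside library 2 gave much of the remainder: in the other 731 spread barcodes the acinar list had 77.5 CPM and the general epithelial list 25.5 CPM.

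The 8 lowest ratios among genes at 100 CPM or more in home barcodes were those of Reg3g, Try4, Reg3a, Prss2, Cpa1, Reg2, Reg3b and Sptssb. Reg3g, a secreted antibacterial lectin, had 1 UMI in spread barcodes and 12307 in home barcodes. Try4, a trypsin, had 2 UMIs in spread and 11958 in home barcodes. Cpa1, a carboxypeptidase, had 4 in spread and 12572 in home barcodes. All 10 proliferation genes were lower, with Mki67 at 19.0 CPM in spread and 175.7 CPM in home barcodes. The 4 genes of the ribosomal RNA locus list summed to 9047 CPM in spread barcodes, 113727 CPM in home barcodes and 239820 CPM in free RNA. Malat1, a long RNA kept in the nucleus, had 40603 CPM in spread barcodes and 6694 CPM in home barcodes. The immediate early genes Fos and Jun, which are induced by stress and tissue dissociation, had 4249 and 4472 CPM in spread barcodes and 425.4 and 579.1 CPM in home barcodes. Malat1, Fos and Jun were named after their values were seen. The part of depth or free RNA in these differences was not tested.

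**Figure D4:**
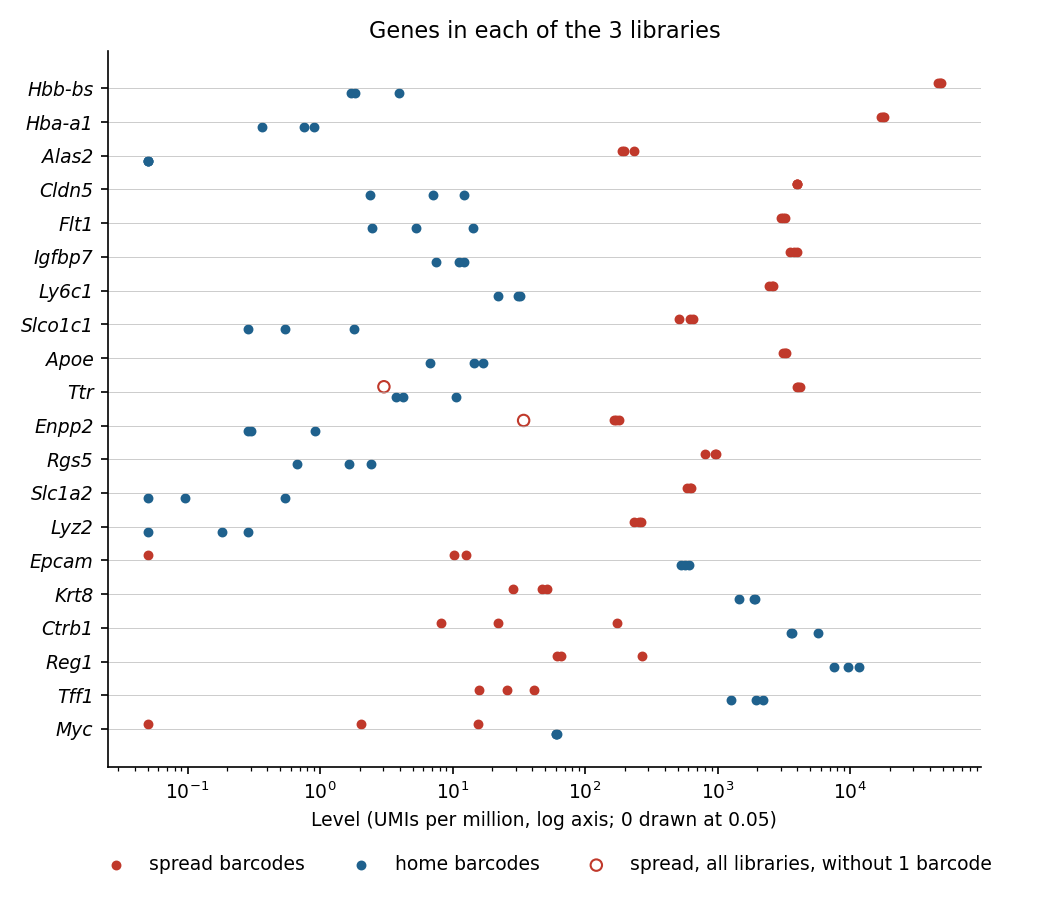
Level of 20 genes in CPM (log axis, zeros drawn at 0.05), 1 point per library, for spread barcodes (red) and home barcodes (blue); open circles give Ttr and Enpp2 in spread barcodes of all libraries without the barcode with most Ttr UMIs. Ttr falls to 3.03 and Enpp2 to 34.4 without it.

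The spread barcodes were not of 1 kind. Leiden clustering of the 739 barcodes gave 7 clusters, named only from the marker lists; their leading genes describe the clusters and are not findings, since the clusters were built from them. Cluster 1 (244 barcodes) had 30330 CPM of the barrier list and 19653 CPM of the endothelial list. It holds the Ttr barcode, whose Ttr and Enpp2 were its 2 leading genes. Without that barcode, Polk, Spock2, Lims2 and Adgre5 were among its 5 leading genes, 9 of 10 barrier genes were 2-fold or more above the other members, and it was called endothelial-like. Cluster 2 (206 barcodes), also endothelial-like, had 18306 CPM of the endothelial list and 13817 CPM of the barrier list, and was led by Ackr1, a chemokine receptor of venules, Lrg1, Igfbp3, Adamts9 and Apln.

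Cluster 3 (119 barcodes) was erythroid-like, with 520307 CPM of the erythroid list and 10 of its 14 genes 2-fold or more above the other members, led by Alas2, Hbb-bt, Hbb-bs, Hba-a1 and Hba-a2. Cluster 4 (96 barcodes) was left unnamed, because its leading genes came from several lists: Dcn and Col1a2, of fibroblasts, and Tagln and Acta2, of smooth muscle, beside Mmp3, a matrix protease. Its pericyte and smooth muscle list had 12536 CPM and its fibroblast list 4322 CPM. Cluster 5 (55 barcodes) was astrocyte-like, with 35230 CPM of that list, all 12 of its genes above the other members, and Aldoc, Slc1a2, Crym, Gpr37l1 and Ttyh1 leading. Cluster 6 (12 barcodes) was myeloid-like, with 33696 CPM and Lyz2, Ccl12, Tyrobp, C1qa and C1qb leading.

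Clusters 2, 3, 4, 5 and 6 had the most UMIs in library 2 in all of their barcodes, and cluster 1 in 242 of 244. For clusters 1 to 6 the median shares were 31.8%, 33.1%, 30.3%, 30.5%, 32.0% and 31.8% in library 1. They were 49.2%, 48.8%, 49.4%, 49.8%, 48.8% and 49.3% in library 2, and 19.4%, 18.1%, 19.8%, 19.6%, 19.6% and 19.1% in library 3. The rule that chose the members used these shares, and they are given only as a description. Cluster 7, of 7 barcodes and below the 10 needed for a name, stood apart. Its largest share lay in library 1 in 2 barcodes, library 2 in 1 and library 3 in 4, and Krt8, Tff1, Dmbt1, Krt19 and Reg2 led it. Its general epithelial list had 4905 CPM, against 23.4 CPM in all other members.

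**Figure D5:**
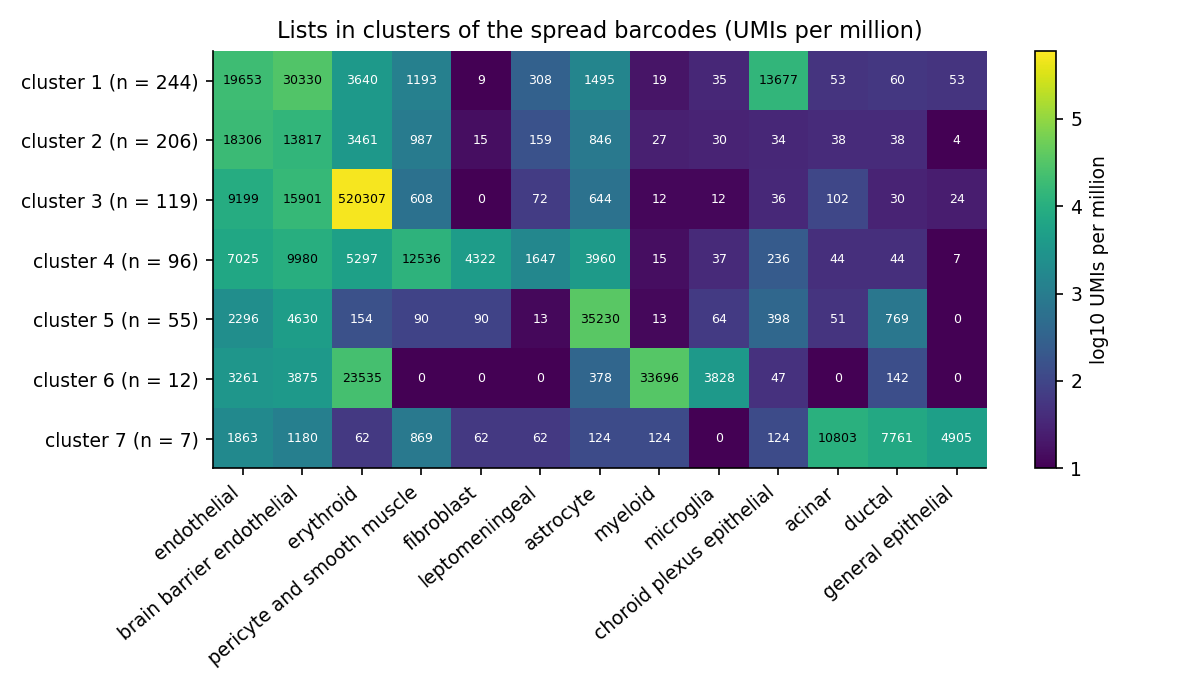
Summed level of each marker list in each of the 7 clusters of spread barcodes, in CPM; colour is the log10 of the printed value. Lists peak in different clusters: the erythroid list at 520307 in cluster 3, the astrocyte list at 35230 in cluster 5, while the choroid plexus value of 13677 in cluster 1 rests on 1 barcode.

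The erythroid-like barcodes also carried vessel RNA. The erythroid list was a median of 52.8% of a cluster 3 barcode's UMIs, from 3.79% to 98.1%. With CPM taken over the UMIs outside the erythroid list, the endothelial list stood at 19176 in cluster 3, against 19725 in cluster 1 and 18370 in cluster 2. Barrier genes stood at 33147 CPM on that scale in cluster 3, against 30441 and 13865 in clusters 1 and 2, and Cldn5 at 5405, against 5970 and 4973. The astrocyte-like cluster 5 had 2296 CPM of the endothelial and 4630 CPM of the barrier list on the same scale, and myeloid-like cluster 6 had 3339 CPM of the endothelial and 3969 CPM of the barrier list. With globin set aside, the endothelial level of cluster 3 thus lay between those of the endothelial-like clusters. In thinned barcodes, 66 of the 133 with 10 or more erythroid UMIs had 10 or more endothelial UMIs, a smaller part than the 522 of 739 (70.6%) over all members, and globin takes up much of each thinned 1000 in these 133.

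In the other sets, too, the part with 10 or more endothelial UMIs was smaller than the 70.6% over all members. The 59 barcodes with 10 or more pericyte and smooth muscle UMIs included 19 with 10 or more endothelial UMIs. Of the 58 with 10 or more astrocyte UMIs, 3 had as many endothelial UMIs and 0 had as many erythroid UMIs. None of the 10 myeloid barcodes had 10 or more endothelial UMIs. They also shared no barcode with the erythroid, pericyte or astrocyte sets, which are 133, 59 and 58 of the 739 members, so little overlap could be seen in 10 barcodes. Globin-rich barcodes did occur outside cluster 3. The highest erythroid share of a barcode was 20.9%, 23.4%, 25.7% and 41.7% in clusters 1, 2, 4 and 6, with a median of 0 in each, and 0.140% in cluster 5. Only 48 of 739 members (6.50%) reached 10 UMIs in none of the erythroid, endothelial, choroid plexus, pericyte, astrocyte and myeloid lists. No doublet caller was run, and whether a barcode with several lists held several cells was not tested.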

How the data were processed

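RNA was captured with 10x Genomics 3' chemistry in 3 tumours, 1 library each; reagent kits of Version 1 and of Version 3 are both mentioned in the labels. The deposited values are raw UMI counts per gene and barcode, made by the authors with Cell Ranger 3.0.2 per the file headers (mm10 and Seurat 3.1 per the submitters' processing notes). Each unfiltered table lists the same 31053 genes and 6794880 barcodes, and gene and barcode names were the deposited lists. The gene annotation and any use of strand in counting are not given in the sources used here. Gene positions are those of GENCODE M21 (GRCm38/mm10, 1-based), matched by gene identifier.

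UMIs were summed per barcode over the 3 libraries, the rule was applied, and levels are CPM of summed counts, with exact Poisson intervals and, for shares, Clopper-Pearson 95% intervals, which reflect counting error alone. Genes with 50 or more UMIs over both sets were read at 2-fold, with 3 UMIs as the floor. With 1 set of barcodes read in 3 libraries there is no replicate of a group, so no p-value was computed. Shares of barcodes used 1000 UMIs drawn per barcode without replacement. Clustering used 10000 counts per barcode, a log transform, 1497 variable genes (no mitochondrial, ribosomal protein or sex-linked genes), 20 principal components, 15 neighbours and Leiden resolution 0.5 (scanpy 1.11.5, leidenalg 0.10.2, Python 3.11.15). Ratio recovery was checked on simulated counts. Doublets were not called.

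The members and the 34 lists were chosen with earlier results of these data known. Genes named are the label's markers, the 20 highest and 8 lowest ratios, the 3 most abundant members of each list, the 5 leading genes of each cluster and the sex-linked, model, ribosomal RNA and embryonic globin genes; further genes of the lists and the most abundant genes were named after their values were seen. 2 list genes (Ahsp and Eltd1) had no entry. Some genes that this rule names are not reported here.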

Additional observations from a re-analysis of the deposited data

Results flagged for a closer look

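Barcodes with at least 500 and under 1000 summed UMIs lie outside the comparison above and carried the same lists, well above the home barcodes of that depth. By the same 60% limit, 3775 of them were spread and 3309 were home. The erythroid list had 25020 CPM in these spread barcodes and 66.7 CPM in the home barcodes of this depth. The endothelial list had 16657 CPM in spread and 34.4 CPM in home barcodes, and the astrocyte list 3709 CPM in spread and 42.3 CPM in home barcodes. The barrier list had 24129 CPM in spread and 539.0 CPM in home barcodes. The choroid plexus list had 103.9 CPM in spread and 429.5 CPM in home barcodes, so it was lower in the shallower spread barcodes. The cause was not tested.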

How the results depend on the processing

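Of 130 alternative values, 93 stayed close to the reported one, 36 moved and 1 reversed. The reversed one was the choroid plexus log2 ratio, -1.91 without the barcode with most Ttr UMIs. In this alternative, added after seeing the data, 0 barcodes held 10 or more list UMIs. Close is a loose term here. For counts it was a fold limit, which 507 members (largest share under 50%) and 3912 higher genes (2000 or more UMIs) passed. For log2 ratios it was the standard deviation over the 3 libraries, which are not separate samples, 1.30 for the acinar list. With a largest share under 50%, members above it count as home barcodes, and the log2 ratios were 5.46 (erythroid), 5.86 (endothelial), 4.06 (choroid plexus) and -8.33 (acinar), with 84 erythroid barcodes. Under 70% they were 10.41 (erythroid), 3.39 (choroid plexus), -3.70 (acinar) and -3.20 (ductal). With 500 or more UMIs there were 4514 members and ratios of 9.46 (erythroid), 1.76 (choroid plexus) and -5.67 (ductal). With 2000 or more there were 48 members, 948 lower genes, ratios of 6.37 (choroid plexus), -4.95 (acinar) and -2.86 (ductal), and 14 erythroid and 24 endothelial barcodes. The gene and mitochondrial filter gave an erythroid ratio of 9.02 and 58 erythroid barcodes. Leaving the erythroid list and Ttr out of the total gave 10.66 (erythroid) and 3.65 (choroid plexus) and shifted the median of all genes to 0.24, from 0.10; leaving out mitochondrial and ribosomal RNA locus genes gave 10.24, 3.22 and -5.19 (ductal) and a median of -0.18. With no minimum of UMIs 10459 genes were higher, with 200 UMIs 1618, and at 4-fold 1362 were higher and 944 lower. At 20 UMIs of 1000, 242 barcodes were endothelial. Members with most UMIs in library 2 gave -8.17 (acinar) and -5.92 (ductal), also added after seeing the data. Resolution 1 gave 11 clusters. The causes were not tested beyond these constructions. Leaving out each library gave 2420 to 2637 higher and 1894 to 2205 lower genes, and ratios of 10.47 to 10.54 (erythroid), 8.03 to 8.51 (endothelial), 3.46 to 3.55 (choroid plexus), -7.36 to -6.01 (acinar) and -5.09 to -4.72 (ductal). Thinned counts of barcodes were not run with 500 UMIs or with a library left out, since barcodes there had too few UMIs. No paired analysis was possible because the 3 libraries read the same tags, so that they are not separate samples, and the comparison comes from no test. Depth limits genes with few UMIs, such as those of the red cell membrane.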

Other observations

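Sex-linked genes differed between the home barcodes of the 3 libraries, and spread barcodes held both kinds. Xist, the RNA of the inactive X chromosome in females, had 387.5 CPM in spread barcodes, against 1.39, 0 and 713.9 CPM in the home barcodes of libraries 1, 2 and 3 and 462.7 CPM over all home barcodes. It was found in 216 of 739 spread barcodes (29.2%). Y-linked genes (Ddx3y, Eif2s3y, Uty and Kdm5d) were found in 47 spread barcodes (6.36%), against 213 (9.59%), 55 (12.7%) and 1 (0.0238%) of the home barcodes of libraries 1, 2 and 3. Spread barcodes with both an Xist and a Y-linked UMI numbered 4, among the 216 with Xist and the 47 with a Y-linked UMI. Home barcodes with both numbered 0 in each library. Xist was found in only 5 home barcodes of library 1 and 0 of library 2, and Y-linked genes in only 1 of library 3. This left little room for overlap, so the home counts give no contrast with the 4. Mixing within a barcode was not tested. Tsix overlaps Xist on the other strand, and its 15 UMIs in spread barcodes cannot be told apart from Xist where strand was not used.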
